A study of Homo sapiens with 32 samples.

Results

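Hepatocyte nuclear factor 4α (HNF4α) binding by its isoforms P1-α2 and P2-α8 was compared in BxPC3, an established human pancreatic ductal adenocarcinoma cell line. The series holds 32 libraries, of which 18 have a peak list, and the 4 BxPC3 libraries immunoprecipitated with an antibody against all HNF4α isoforms (Perseus Proteomics PP-H1415) are described here. Both groups of 2 libraries received 500 ng/mL doxycycline, which induced P1-α2 in the first group and P2-α8 in the second. The titles of the second group join α8 to P1, whereas their genotype label reads P2-a8, and the genotype label was followed. Cells were crosslinked with disuccinimidyl glutarate and then formaldehyde. The labels do not say whether the 2 replicates of a group were separate cultures or clones, so p-values measure only the spread between these libraries. Input libraries and BxPC3 cells without an induced isoform were not analysed here, so none of the values below is set against an uninduced background.

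HNF4α is a nuclear receptor that binds DNA as a homodimer and is best known as a regulator of liver, intestine and pancreas genes. Its gene has a pair of promoters. Transcripts from P1 carry an N-terminal activation domain that P2 transcripts lack, while the DNA-binding domain is shared by both. In pancreatic cancer HNF4α is associated with the classical, more epithelial subtype. The antibody used sees both isoforms, so any HNF4α the cells make themselves would be captured with the induced isoform, and the amount of each isoform was not measured here.

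Peaks of the 4 lists were merged where they shared at least 1 bp, which gave 47225 regions. Regions in both P1-α2 lists and in neither P2-α8 list are called P1-α2-only, those with the reverse pattern P2-α8-only, and those in every list all-4 regions. There were 13330 P1-α2-only regions (28.2% of all merged regions), 61 P2-α8-only regions (0.129%) and 8648 all-4 regions (18.3%). Being in a list means passing the authors' peak threshold in that library, which is a −log10 q just above 8 in each of the 4 lists, and is not the same as being bound or unbound. The strength of a peak is given below as its percentile by the authors' fold enrichment within its own list, with 100 the strongest.

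Sequences at gene starts were searched for the HNF4 site. The stretches printed below were chosen for holding it, so they do not stand for all-4 promoters in general. RefSeq promoter windows (GRCh38.p14, 250 bases before to 50 after a gene start, 22199 windows of protein-coding genes) were searched on both strands for CAAAGTCCA, CAAAGTTCA and CAAAGGTCA, which are 3 forms of the HNF4 site. The 4 promoters below are those of genes on the lists used here that held both a peak summit of an all-4 region and a motif in the bases before the start. The last pair, PDZK1 and AIFM2, had a P1-α2-only region instead, and was chosen after the values were seen. Each is written 5′ to 3′ on the gene's strand with the motif, in either orientation, in capitals.
BTNL8: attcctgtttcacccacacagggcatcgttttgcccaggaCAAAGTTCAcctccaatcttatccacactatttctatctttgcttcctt
CLRN3: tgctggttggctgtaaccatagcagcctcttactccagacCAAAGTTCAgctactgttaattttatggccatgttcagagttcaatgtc
MUC13: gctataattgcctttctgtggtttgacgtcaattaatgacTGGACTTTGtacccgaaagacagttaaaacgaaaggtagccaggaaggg
TREH: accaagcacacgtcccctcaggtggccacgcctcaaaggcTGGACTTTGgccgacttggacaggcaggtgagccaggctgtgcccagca
PDZK1: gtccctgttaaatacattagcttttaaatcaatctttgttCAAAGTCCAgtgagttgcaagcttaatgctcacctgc
AIFM2: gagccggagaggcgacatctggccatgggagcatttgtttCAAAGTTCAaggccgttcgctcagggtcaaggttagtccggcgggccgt

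The BTNL8 stretch lies at chr5:180898979-180899067 on the plus strand. The other stretches are on the minus strand, CLRN3 at chr10:127892942-127893030, MUC13 at chr3:124934754-124934842, TREH at chr11:118679675-118679763, PDZK1 at chr1:145707369-145707445 and AIFM2 at chr10:70132929-70133017. BTNL8 and CLRN3 are classical-subtype markers, MUC13 encodes a cell-surface mucin and TREH the brush-border enzyme trehalase. These windows were chosen for holding a summit and a motif together, which limits the distance between the nearest summit and the motif, so the distances are a description. Other all-4 promoters with a motif had summits farther away, such as 939 and 906 bp in P1-α2 and 951 bp in P2-α8 replicate 2 at APOBEC1. At BTNL8 the 4 summits were 6 and 3 bp (P1-α2) and 25 and 11 bp (P2-α8) from the motif, and the peaks stood at percentiles 90.7 and 98.0 in P1-α2 and 89.7 and 81.4 in P2-α8. At CLRN3 the summits were 7 and 9 bp from the motif in P1-α2 and 76 and 30 bp in P2-α8. At MUC13 the distances were 17 and 13 bp against 16 and 66 bp, and at TREH 11 and 40 bp against 14 and 78 bp. PDZK1, which encodes a scaffold protein of the brush border, had P1-α2 summits 53 and 1 bp from its motif at percentiles 21.5 and 33.9 of those lists. AIFM2, an oxidoreductase that protects lipids from peroxidation, had P1-α2 summits 6 and 13 bp away at percentiles 73.6 and 37.0.

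Over all windows, 210 of 22199 held a motif (0.946%). The share was 0.668% (143 of 21402) for windows without a summit in any of the 4 lists and 4.92% (9 of 183, exact 95% interval 2.27% to 9.13%) for windows with the summit of a P1-α2-only region. It was 21.2% (31 of 146, interval 14.9% to 28.8%) for windows with the summit of an all-4 region. No window held the summit of a P2-α8-only region. The intervals are Clopper-Pearson and, like all intervals below, cover counting error only. The 22199 windows belong to 15843 genes. Windows of the same gene can overlap and hold the same summit and motif, as at HSD3B1, so windows are not independent. All-4 regions were stronger, so the classes were also set side by side at like strength. Among regions with a mean P1-α2 percentile of 50 or more, 2 of 37 P1-α2-only windows held a motif (5.41%, interval 0.661% to 18.2%) against 28 of 123 all-4 windows (22.8%, 15.7% to 31.2%). Under 50, the shares were 4.79% (7 of 146) and 13.0% (3 of 23). The all-4 share was higher on both sides of 50, with intervals that overlapped on both. Library by library, 8.44% and 12.2% of windows with a P1-α2 summit held a motif, against 17.4% and 22.2% with a P2-α8 summit. When every list was shortened to its strongest 12681 peaks, the length of the shortest list, these shares were 19.4% and 20.0% for P1-α2 and 17.4% and 24.6% for P2-α8, and the groups overlapped.

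**Figure D1:**
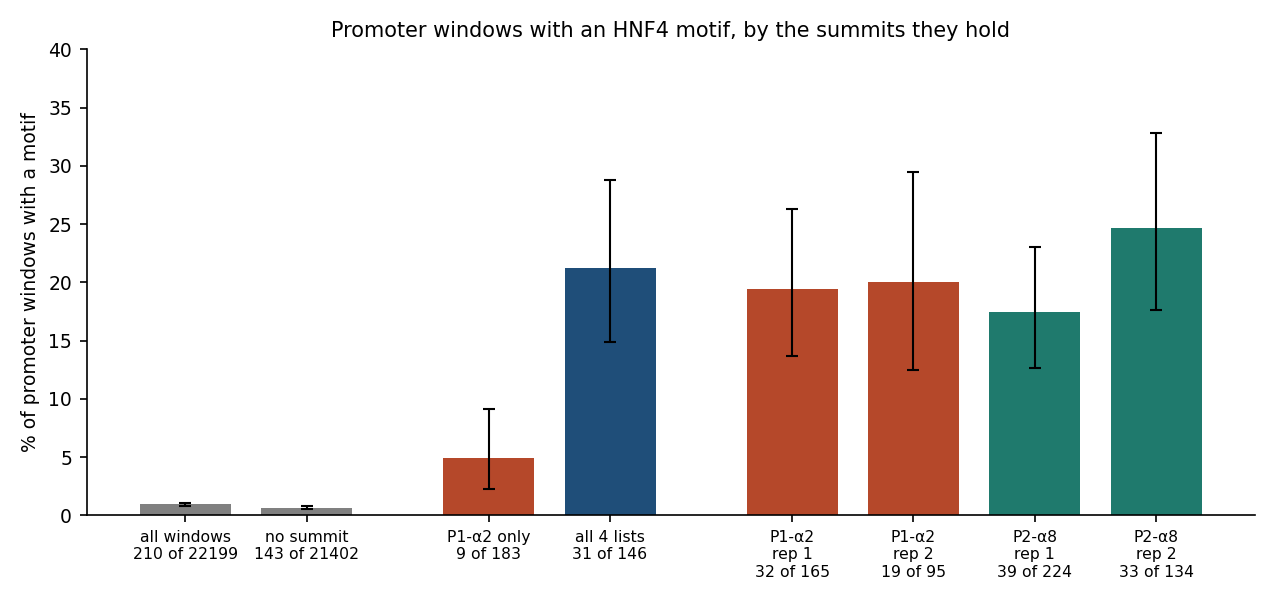
Share of promoter windows that hold an HNF4 motif (vertical axis, percent) by the peak summits in them, with exact 95% intervals as error bars. Windows of all-4 regions reach 21.2% against 4.92% for P1-α2-only regions, and the 4 libraries cut to equal length lie between 17.4% and 24.6% with overlapping intervals.

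The P2-α8 lists were shorter and almost wholly contained in the P1-α2 lists. The P1-α2 libraries held 41808 and 33737 peaks and the P2-α8 libraries 12681 and 14666. Both P1-α2 values were above both P2-α8 values, and the group means of log2 peak number differed by 1.46. The two-sided exact permutation p was 0.333, the smallest that 2 libraries against 2 allow. Read depth is unknown, so list length cannot be told apart from depth or from the yield of the immunoprecipitation. Of the P2-α8 peaks, 97.1% and 96.5% overlapped a peak of either P1-α2 list, whereas 71.4% and 61.5% overlapped a peak of the other P2-α8 list. Of the P1-α2 peaks, 40.5% and 47.4% overlapped a peak of either P2-α8 list, and 69.4% and 85.9% overlapped the other P1-α2 list. Regions in a single library were also mostly of P1-α2, with 11451 and 4326 against 303 and 448 for P2-α8. With 1 library left out a class needs fewer lists, so its count changes by construction. P1-α2-only regions then numbered 24891 without P1-α2 replicate 2, and all-4 regions 12980 without P2-α8 replicate 1. P2-α8-only regions numbered 277 and 116 without the first and second P1-α2 replicate, and 510 and 364 without the first and second P2-α8 replicate.

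The share of P1-α2 regions that were also listed for P2-α8 varied with their strength. The 28844 regions in both P1-α2 lists were ordered by their mean P1-α2 percentile and cut into deciles. In the weakest decile 6.59% of regions were in both P2-α8 lists and 74.2% in neither. In the fifth decile the shares were 18.8% and 54.6%, and in the strongest decile 85.9% and 3.05%. Of the strongest 1000 P1-α2 regions, 970 were all-4 regions and 5 were P1-α2-only. The opposite direction gave a smaller range. From the weakest to the strongest decile of the 8977 regions in both P2-α8 lists, the share in both P1-α2 lists went from 90.3% to 99.7%. P1-α2-only regions accordingly had median percentiles of 47.8 and 41.1 in the P1-α2 lists, against 85.4 and 80.0 for all-4 regions. In fold enrichment, which the authors computed, these medians were 11.2 and 9.28 for P1-α2-only regions and 19.7 and 14.7 for all-4 regions.

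**Figure D2:**
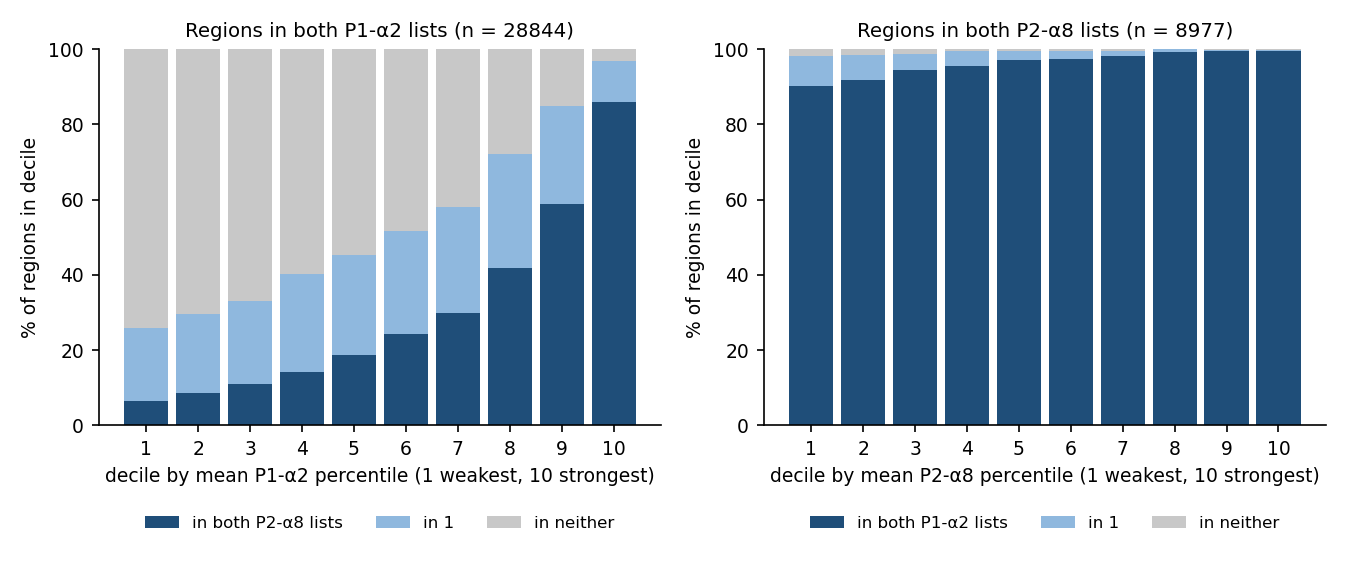
Regions in both P1-α2 lists (left, 28844 regions) and in both P2-α8 lists (right, 8977), cut into deciles by mean percentile (horizontal axis); bars stack the percent of each decile found in both, 1 or neither list of the other isoform. The share in both P2-α8 lists climbs from 6.59% to 85.9% at left, while at right the share in both P1-α2 lists never falls under 90.3%.

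Overlap with other pancreatic cancer lines separated the classes in different ways. The AsPC1 cells used here carried a control guide (sgNC) and no induced isoform, and were mapped with the same antibody. Panc10.05 cells were induced as BxPC3 was, but at doxycycline doses that differ between the isoforms (25 ng/mL in P1-α2 cells, 12.5 ng/mL in P2-α8 cells). A peak in either AsPC1 list overlapped 20.2% of P1-α2-only regions (2688 of 13330, exact 95% interval 19.5% to 20.9%) and 52.4% of all-4 regions (4531 of 8648, 51.3% to 53.5%). The AsPC1 lists are thresholded at a lower −log10 q than the BxPC3 lists, but the same AsPC1 lists serve both classes. A peak in any of the 4 Panc10.05 lists overlapped 60.7% of P1-α2-only regions and 83.4% of all-4 regions.

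Set side by side at like P1-α2 strength, the AsPC1 difference persisted and the Panc10.05 difference shrank. Regions in both P1-α2 lists were placed in 10 bins of 10 percentile points. Those in neither P2-α8 list overlapped AsPC1 at between 15.9% and 30.0% in these bins, those in 1 P2-α8 list at between 24.6% and 40.6%, and those in both at between 43.8% and 57.0%. The share was higher with both P2-α8 lists than with neither in 10 of 10 bins, by 17.2 to 37.5 percentage points. Among P1-α2-only regions AsPC1 overlap went from 30.0% in the weakest bin to 15.9% in the ninth and 19.6% in the strongest, a bin of 97 regions. Among those in both P2-α8 lists it went from 47.2% in the weakest bin to 57.0% in the strongest. For Panc10.05 the shares rose with strength in every class, from 49.7% to 78.4% with neither P2-α8 list and from 50.9% to 94.5% with both. The gap between those classes was 1.27 to 16.1 points. All-4 regions were also wider, and wide regions overlap more readily. With each region replaced by a 101 bp window around its P1-α2 replicate 1 summit, AsPC1 overlap was 19.7%, 32.2% and 51.7% for neither, 1 and both P2-α8 lists. The gap over the bins was then 16.4 to 37.0 points.

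**Figure D3:**
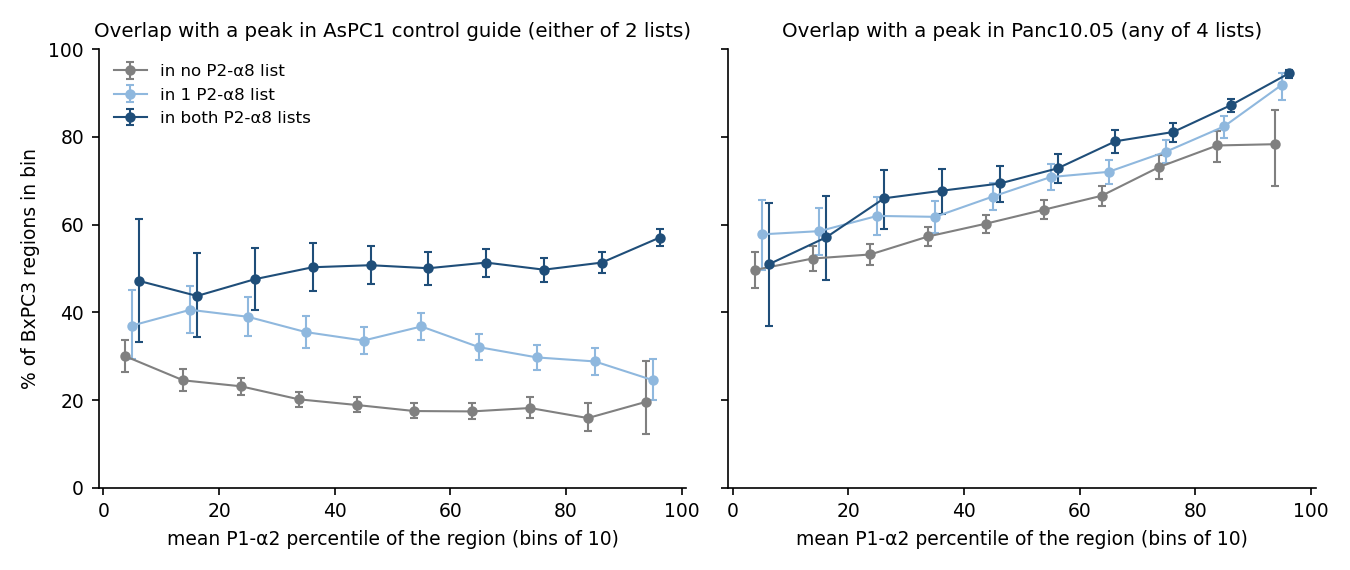
Percent of BxPC3 regions overlapping an AsPC1 control-guide peak (left) or a Panc10.05 peak (right) against the region's mean P1-α2 percentile in bins of 10; colours give the number of P2-α8 lists that hold the region and bars are exact 95% intervals. At left the line for both P2-α8 lists stays between 43.8% and 57.0% and above the line for neither list, while at right all lines climb with strength.

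Taken per library, the P2-α8 lists shared more with AsPC1 than the P1-α2 lists did. The overlap was 29.2% and 30.2% of P1-α2 peaks and 48.3% and 41.4% of P2-α8 peaks, a difference of −15.1 percentage points for P1-α2 minus P2-α8 (exact permutation p = 0.333, the smallest possible). With lists of equal length the values were 40.8% and 35.7% against 48.3% and 41.2%, so the difference was −6.50 points and the groups still did not overlap. For Panc10.05 the direction turned when the lists were cut to equal length. Full lists gave 61.0% and 66.2% against 76.4% and 75.4%, and equal lists gave 80.8% and 79.7% against 76.4% and 76.8%. At equal length 1551 regions were P1-α2-only, 1208 were P2-α8-only and 4970 were in all 4 lists, and 17.7%, 43.2% and 53.9% of them overlapped AsPC1. Of the 1208, 93.0% and 85.2% overlapped a peak of the full P1-α2 lists, so most P2-α8-only regions at equal length were P1-α2 regions of lower rank.

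Peaks were wider under P1-α2. The middle peak of the P1-α2 lists spanned 419 and 413 bp, against 343 and 371 bp in the P2-α8 lists, a difference of 59 bp in the group means (exact permutation p = 0.333). At equal length the medians were 553 and 531 bp against 343 and 380 bp, and the difference grew to 180.5 bp. That cut kept only the strongest P1-α2 peaks and left P2-α8 replicate 1 whole. Width went with strength, as regions in both P1-α2 lists had a median of 446 bp in the weakest decile and 712 bp in the strongest. The larger difference therefore cannot be told apart from the choice of strong peaks, and read depth is unknown. Merged regions had median widths of 444 bp when P1-α2-only, 355 bp when P2-α8-only and 667 bp when in all 4 lists. Merging itself widens regions with more lists. All-4 regions measured in 1 library were 607 and 585 bp wide in the P1-α2 lists, against 398 and 369 bp for P1-α2-only regions.

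Shares of summits near gene starts and inside genes overlapped between the isoforms in the full lists, whereas the gene-start share and the distance to a start did not overlap in lists of equal length. Summits within 1 kb of the start of a protein-coding gene made up 5.14% and 4.58% of the P1-α2 lists and 4.87% and 4.15% of the P2-α8 lists, so the groups overlapped (exact permutation p = 0.667). The difference in means was 0.347 percentage points, and it became −0.0154 without P2-α8 replicate 2. With equal lists the shares were 3.75% and 3.10% for P1-α2 against 4.87% and 3.75% for P2-α8, a difference of −0.888 points between groups that did not overlap, although the nearest libraries, at 3.75% each, were equal after rounding (exact permutation p = 0.333, the smallest possible). Summits inside a protein-coding gene made up 47.5% and 47.6% against 47.5% and 47.0%, a difference of 0.255 points that became −0.323 with equal lists. The median distance to the nearest gene start was 44987 and 45768.5 bp against 42564 and 45156 bp (exact permutation p = 0.667), a difference of 1517.75 bp. With equal lists it was 46539 and 48303 bp against 42564 and 46081 bp, a difference of 3098.5 bp between groups that did not overlap (exact permutation p = 0.333). Among regions whose distance could be taken, 4.70% of P1-α2-only regions (591 of 12569) and 4.47% of all-4 regions (367 of 8214) were within 1 kb of a start, with overlapping intervals. At like P1-α2 strength the classes differed more. The share was higher with both P2-α8 lists than with neither in 7 of 10 bins, those from percentile 30 upward, and lower in the 3 weakest. From percentile 50 to 60 it was 2.97% with neither list (53 of 1784, interval 2.23% to 3.87%) and 5.65% with both (38 of 672, 4.03% to 7.68%). From 80 to 90 it was 0.394% (2 of 508, 0.0477% to 1.41%) and 4.11% (72 of 1751, 3.23% to 5.15%). The intervals were apart in these 2 bins and overlapped in the others. The bands from 1 to 10 kb (15.1% and 15.5%), 10 to 50 kb (32.0% and 33.9%) and 50 to 100 kb (16.9% and 17.4%) were within 2 percentage points of each other. Beyond 100 kb lay 31.3% of P1-α2-only and 28.6% of all-4 regions. Within the P1-α2-only class the share near starts fell with strength, from 8.38% in the weakest quartile to 2.39% in the strongest.

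The share of peaks with a close neighbour was higher for P1-α2 in the full lists and lower in lists of equal length. Another peak of the same list lay within 10 kb of 48.1% and 45.2% of P1-α2 peaks and of 26.5% and 29.3% of P2-α8 peaks (difference 18.8 percentage points, exact permutation p = 0.333). At equal length the order turned, with 22.1% and 22.7% against 26.5% and 25.6%, a difference of −3.66 points between groups that did not overlap. The shortened lists also keep only the strongest peaks, so length and strength changed together. Of the P1-α2-only regions, 20.0% had another of their class within 10 kb, as had 20.8% of all-4 regions. Within 50 kb of an all-4 region lay 40.9% of P1-α2-only and 32 of 61 P2-α8-only regions (52.5%, exact 95% interval 39.3% to 65.4%). For regions in none of the classes the share was 41.8%.

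**Figure D4:**
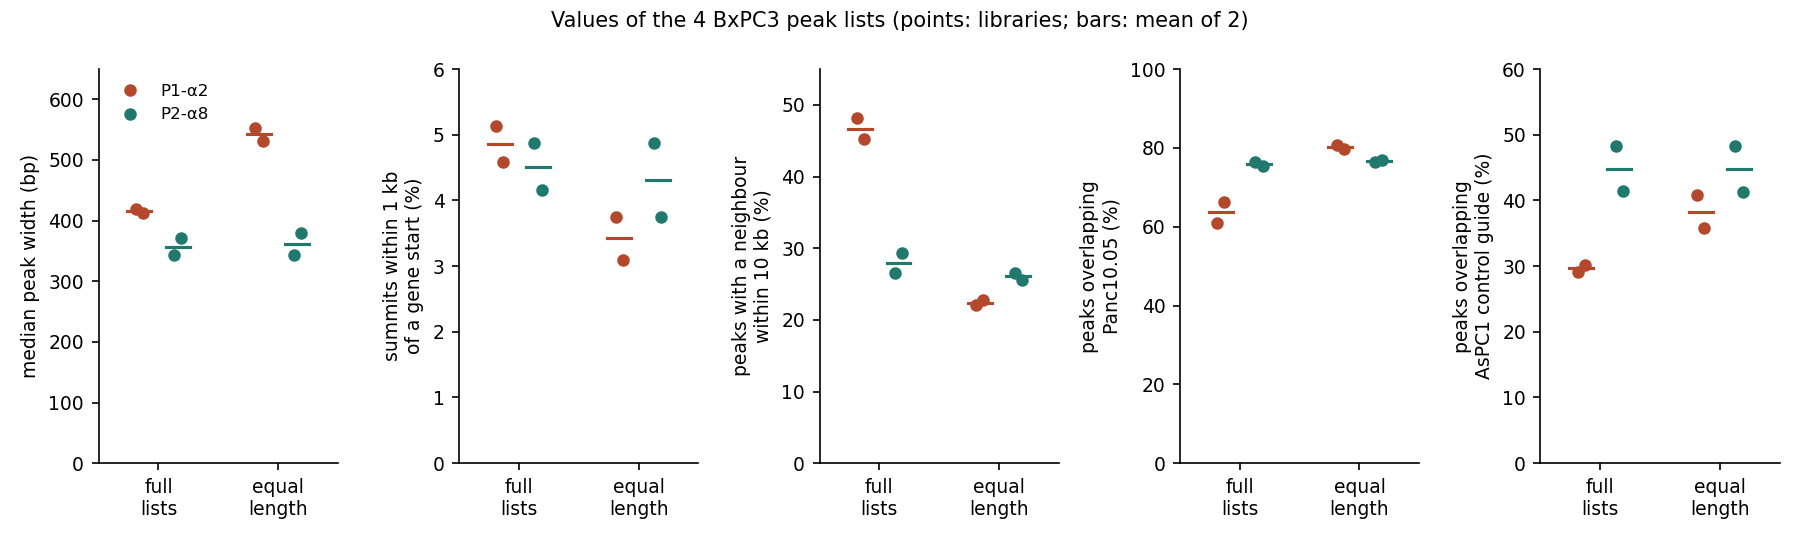
The 2 libraries of each isoform (points) and their mean (bar) for 5 measures, with full peak lists and with each list cut to its strongest 12681 peaks. Width and AsPC1 overlap keep their direction at equal length, whereas the neighbour and Panc10.05 shares turn and the gene-start share overlaps between groups in the full lists but not at equal length.

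Most P1-α2-only regions had no other region of their own class within 10 kb. Neighbours of this class at most 10 kb apart were chained into runs. By this rule 10669 of 13330 regions formed no run, while 37 runs held 4 or more and 6 runs held 5. Other regions did not count towards a run, so a region without a run can still have peaks nearby. The middle of 14.1% of P1-α2-only regions lay within 10 kb of the middle of an all-4 region. A run of 5 at PLEKHG7, chr12:92539050-92550677, held 5 and 5 P1-α2 peaks and none of P2-α8. The runs at KCNMA1, a calcium-activated potassium channel (chr10:77441098-77476485), and ARHGEF2, a guanine nucleotide exchange factor (chr1:155961937-155991475), each held 5 and 6 P1-α2 peaks and 0 P2-α8 peaks. Those at INTS7, an Integrator complex subunit (chr1:211910128-211929760), and near TRIB1, a pseudokinase gene, each held 6 and 6 P1-α2 peaks with 0 and 1 for P2-α8. The mean percentile over a run was between 39.3 (PLEKHG7) and 56.8 (INTS7), so these were stretches of middling peaks.

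By nearest gene, P1-α2-only regions were spread over 7024 protein-coding genes, 4018 of them with a single region. TENM4, a teneurin cell-adhesion gene spanning 788202 bp, was nearest to 28, of which 17 lay inside it. It also had 11 all-4 regions, and 71 and 65 of its 80 merged regions were in the P1-α2 lists against 19 and 28 in the P2-α8 lists. LPP, a focal-adhesion protein gene, had 18, and KALRN (a guanine nucleotide exchange factor), HIVEP3 (a zinc-finger factor) and MYC (the proliferation factor) had 16 each. The MYC regions all lay outside its 7518 bp span. PDE4D and KCNMA1 had 14, and TBC1D1, DENND1A and LOC124903767 had 13. The spans of these 10 genes ran from 927 bp (LOC124903767) to 1553091 bp (PDE4D), and long spans and wide intergenic stretches give a gene more room to be nearest.

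Gene neighbourhoods were counted as regions whose middle lay within 50 kb of a gene's span. Of 20037 protein-coding genes, 11289 had a P1-α2-only region there (56.3%), 83 a P2-α8-only region (0.414%) and 8355 an all-4 region (41.7%). The first and last groups shared 5848 genes, which is 51.8% of the genes with a P1-α2-only region and 70.0% of those with an all-4 region. P1-α2-only regions without an all-4 region were near 5441 genes, and the reverse held for 2507. Over all genes the median was 1 P1-α2-only and 0 all-4 regions. None of the 14 gene lists had a P2-α8-only region near any member. Counts for the lists are descriptions without a test, and neighbouring genes of a cluster share regions. The 56.3% and 41.7% of all genes are the background for the full-list counts below.

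**Figure D5:**
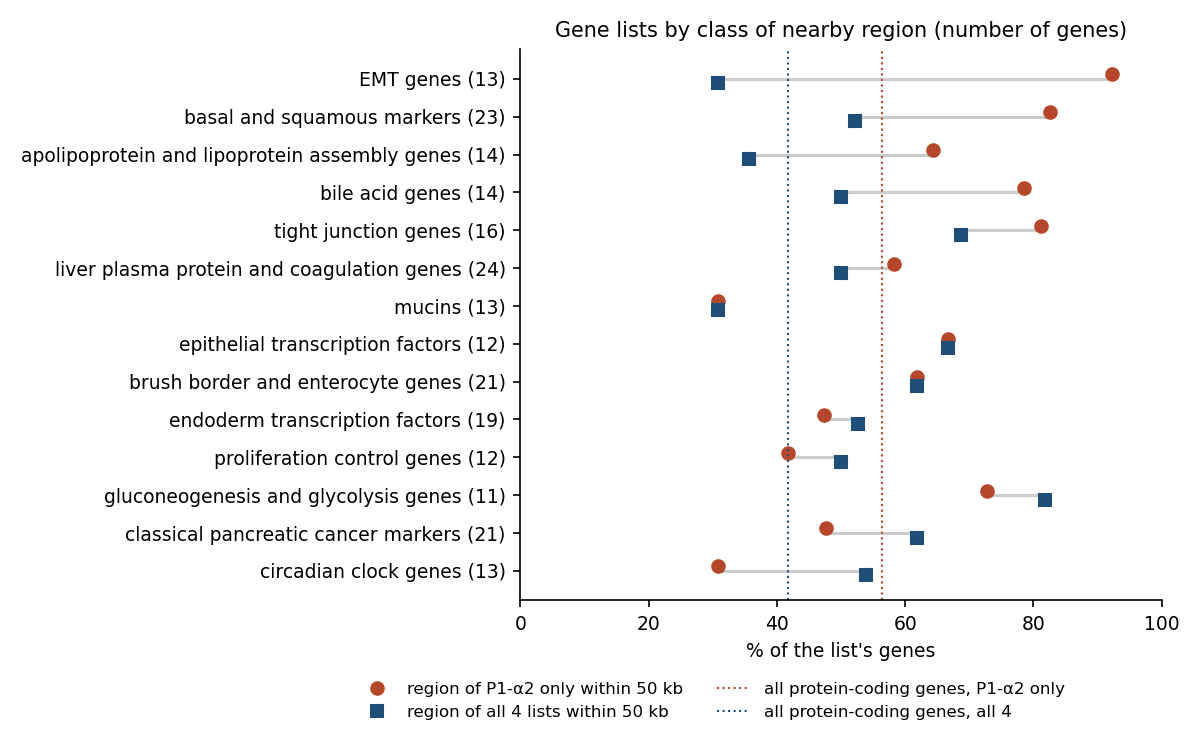
Percent of each list's genes with a P1-α2-only region (circles) or an all-4 region (squares) within 50 kb; list sizes are in parentheses and dotted lines mark all 20037 protein-coding genes at 56.3% and 41.7%. EMT genes stand at 92.3% and 30.8%, clock genes at 30.8% and 53.8%, and genes of gluconeogenesis and glycolysis at 72.7% and 81.8%.

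Glucose metabolism, a process that HNF4α is known to regulate in liver, had the largest all-4 share of the 14 lists. An all-4 region lay near 9 of 11 genes of gluconeogenesis and glycolysis (median 2 a gene) and a P1-α2-only region near 8 of 11. At equal list length the all-4 count was 8 of 11, against 28.7% of all genes, and within 10 kb it was also 8 of 11, against 21.7%. PCK1, the cytosolic enzyme that commits carbon to gluconeogenesis, had 4 all-4 regions and no P1-α2-only region. Its highest peaks stood at percentiles 98.2 and 99.4 in P1-α2 and 97.1 and 98.4 in P2-α8, so all libraries had a top peak there. FBP1, fructose-1,6-bisphosphatase, had 3 all-4 regions and 1 P1-α2-only region. G6PC1, the glucose-6-phosphatase catalytic subunit, and PC, pyruvate carboxylase, each had 2 all-4 and 3 P1-α2-only regions.

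Apolipoprotein genes are textbook HNF4α targets. Of the 14 on the list, 9 had a P1-α2-only region (64.3%, against 56.3% of all protein-coding genes). An all-4 region lay near 5 of 14 (35.7%, against 41.7%). At equal list length both counts were 5 of 14, against 9.92% and 28.7% of all genes. The cluster of APOA1, APOC3, APOA4 and APOA5 carried 4 of those 5, with 3 all-4 regions at APOA1, APOA4 and APOC3 and 2 at APOA5. The highest peak of the cluster stood at percentiles 99.6 and 99.98 in P1-α2 and 96.7 and 98.8 in P2-α8. The cluster also held 5 P1-α2-only regions near APOA4 and APOC3. APOA2 had 2 P1-α2-only regions, with top percentiles of 98.9 and 98.2 in P1-α2 and a single peak in 1 P2-α8 list at 63.2. APOF had 4 P1-α2-only regions and 1 all-4 region. APOB and MTTP, which build lipoprotein particles, each had 1 P1-α2-only region and none of all 4. Without P1-α2 replicate 2 the P1-α2-only count was 14 of 14, and without P2-α8 replicate 1 the all-4 count was 9 of 14. Over all protein-coding genes the P1-α2-only share also moved with the libraries used, to 64.6% without P1-α2 replicate 1, 75.2% without P1-α2 replicate 2, 61.5% without P2-α8 replicate 1 and 63.8% without P2-α8 replicate 2, and the all-4 share was 52.3% without P2-α8 replicate 1.

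Plasma protein and coagulation genes of the liver lay near the background, with 14 of 24 near a P1-α2-only and 12 of 24 near an all-4 region. PROC (protein C) and PLG (plasminogen) each had 3 all-4 regions, and F5 (coagulation factor V) had 3 with 2 P1-α2-only regions. C3, complement component 3, had 4 P1-α2-only regions and 1 all-4 region. Coagulation factor genes F7 and F10 had 1 and 2 P1-α2-only regions and no P2-α8 peak. ALB and TTR each had 1 all-4 region and no P1-α2-only region.

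Bile acid genes were near a P1-α2-only region in 11 of 14 cases and near an all-4 region in 7 of 14. NR0B2, the small heterodimer partner that represses bile acid synthesis, had the most, with 6 P1-α2-only regions and 1 all-4 region. It showed 9 and 9 P1-α2 peaks against 1 and 1 P2-α8 peaks, and those P2-α8 peaks stood low, at percentiles 6.53 and 5.17. NR1H4, the bile acid receptor FXR, had 1 P1-α2-only region at percentiles 86.5 and 93.8 and no P2-α8 peak. CYP8B1, a sterol hydroxylase, had 2 all-4 regions, and SLC51B, a bile acid exporter subunit, had 3.

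Of 21 brush-border and enterocyte genes, 13 had a P1-α2-only region, 13 an all-4 region and 15 at least 1 of the 2, with medians of 1 P1-α2-only and 2 all-4 regions a gene. Of all protein-coding genes, 31.1% had a region of neither class. ANPEP, aminopeptidase N, had 7 all-4 regions, and its best peaks stood at percentiles 99.5 and 93.9 in P1-α2 and 99.5 and 89.4 in P2-α8. TREH had 4 all-4 and 3 P1-α2-only regions. ANKS4B, a microvillus adhesion scaffold, had 2 all-4 regions with every library at percentile 98.6 or above. EPS8, an actin-capping protein of microvilli, had 4 P1-α2-only and 3 all-4 regions, and MEP1A and MEP1B, the meprin proteases, had 3 P1-α2-only regions each. SI and LCT, encoding sucrase-isomaltase and lactase, had no peak in any of the 4 lists. Mucins had few of either class, at 4 of 13 each, with MUC13 holding 4 of their 9 all-4 regions. Without P2-α8 replicate 2, 7 of 13 mucins had a P1-α2-only region (53.8%, against 63.8% of all genes).

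Classical-subtype markers had an all-4 region near 13 of 21 and a P1-α2-only region near 10 of 21 within 50 kb. Basal and squamous markers had a P1-α2-only region near 19 of 23 and an all-4 region near 12 of 23, while their median span of 6082 bp is shorter than the 24115 bp of all genes. Within 10 kb the order of the classes turned for the basal markers, with 6 of 23 near a P1-α2-only and 8 of 23 near an all-4 region, against 6 and 7 of 21 classical markers. Over all genes the 10 kb shares were 31.4% and 21.7%. Without P1-α2 replicate 2 the P1-α2-only counts within 50 kb were 20 of 21 and 21 of 23, against 75.2% of all genes. With lists of equal length, 1 of 21 classical and 4 of 23 basal markers had a P1-α2-only region, 4 of 21 and 3 of 23 a P2-α8-only region, and 10 of 21 and 11 of 23 an all-4 region. The same shares over all genes were 9.92%, 8.93% and 28.7%. CLRN3 had 5 all-4 and 2 P1-α2-only regions, and AGR3, a disulfide isomerase, had 3 and 1. CDH17, the intestinal cadherin, had 2 all-4 regions at percentiles up to 96.4 and 82.2 in P1-α2 and 91.3 and 96.0 in P2-α8. CEACAM5 and CEACAM6 had 2 P1-α2-only regions each and no all-4 region, and so had ANXA10. TP63, the factor that marks squamous identity, had 3 all-4 regions and 1 P1-α2-only region, so all 4 libraries had peaks there. The keratin genes KRT16 and KRT17 had 2 P1-α2-only regions each, with 3 and 2 P1-α2 peaks and 0 P2-α8 peaks. KRT5 and KRT6A had 2 of each class. TFF1, TFF2 and TFF3 had 1 peak, in P1-α2 replicate 1 alone, and so no region of any class.

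Genes of the epithelial-mesenchymal transition (EMT) showed the widest gap between the classes among the 14 lists within 50 kb. A P1-α2-only region lay near 12 of 13 and an all-4 region near 4 of 13, where their median span was 62450 bp. SNAI1, a repressor of E-cadherin, had 5 P1-α2-only and 3 all-4 regions. ZEB2 had 3 P1-α2-only regions, with 5 and 5 P1-α2 peaks against 0 and 1 for P2-α8. ZEB1 and SNAI2 had 2 each and no all-4 region. TWIST1, TWIST2, FN1, TGFB1 and TGFB2 had 1 P1-α2-only region each and no P2-α8 peak. Within 10 kb the counts were 7 and 2 of 13, and the apolipoprotein genes had the wider gap there, at 8 and 2 of 14. Leaving out 1 library at a time gave 12 or 13 of 13 for P1-α2-only and 4 to 6 of 13 for all 4. With equal list length 2 of 13 EMT genes had a P1-α2-only region and 3 of 13 an all-4 region, against 9.92% and 28.7% of all genes, so the count depends on the weaker P1-α2 peaks.

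Transcription factors of endoderm had a P1-α2-only region in 9 of 19 cases and an all-4 region in 10 of 19. The P1-α2-only count was 14 without P1-α2 replicate 1, 15 without P1-α2 replicate 2, 11 without P2-α8 replicate 1 and 16 without P2-α8 replicate 2. These were 73.7%, 78.9%, 57.9% and 84.2% of the list, against 64.6%, 75.2%, 61.5% and 63.8% of all genes in the same settings. HNF4A itself had 1 all-4 region, at percentiles up to 55.7 and 72.3 in P1-α2 and 52.6 and 61.6 in P2-α8. Its paralogue HNF4G had 3 P1-α2-only regions and no all-4 region, with 6 and 7 P1-α2 peaks against 0 and 2 for P2-α8. GATA4 had 3 P1-α2-only and 1 all-4 region, GATA6 had 2 and 1, and CDX1 had 2 and 0. Of 12 epithelial factors, 8 had a P1-α2-only region, 8 an all-4 region and 9 at least 1 of the 2, where 31.1% of all protein-coding genes had neither. ELF3 had 3 P1-α2-only and 1 all-4 region, whereas TFAP2A had 3 all-4 regions and no P1-α2-only region. Tight junction genes had a P1-α2-only region in 13 of 16 cases and an all-4 region in 11 of 16. F11R, junctional adhesion molecule A, had 5 P1-α2-only regions and 1 all-4 region, and CLDN15 had 3 and 1.

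Clock genes had the lowest P1-α2-only share with the mucins, at 4 of 13, and an all-4 region near 7 of 13. RORA, a nuclear receptor of the clock, held 5 of their 16 all-4 regions and 4 of their 8 P1-α2-only regions. NPAS2 had 3 all-4 regions and BMAL1 had 2, both without a P1-α2-only region. The P1-α2-only count of clock genes stayed at 4 of 13 without P1-α2 replicate 1 (30.8%, against 64.6% of all genes). It was 13 of 13 without P1-α2 replicate 2, against 75.2% of all genes. It was 8 of 13 without P2-α8 replicate 1 (61.5%, against 61.5% of all genes) and 9 of 13 without P2-α8 replicate 2 (69.2%, against 63.8%). Of 12 proliferation genes, 5 had a P1-α2-only and 6 an all-4 region, and the first count was 8 when either P1-α2 replicate was left out. This is 66.7% of the list, against 64.6% of all genes without P1-α2 replicate 1 and 75.2% without P1-α2 replicate 2. MYC had 4 and 2, and CDKN1A, the cell-cycle inhibitor p21, had 1 and 3.

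Peak lists hold no expression, so the BxPC3 label could be examined only at loci. Regions of either class lay near the duct markers KRT8, KRT18, KRT19, KRT7 and CDH1, but also near fibroblast markers such as COL1A1 (2 P1-α2-only and 1 all-4) and endothelial markers such as VWF (5 and 2). The presence of peaks near these genes does not check cell identity.

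The strongest P1-α2-only regions reached the top of the P1-α2 lists without passing the threshold under P2-α8. The region inside HIPK3, a homeodomain-interacting kinase (chr11:33269050-33269575), stood at percentiles 98.5 and 96.0, and was the 1 of these 10 that overlapped AsPC1 peaks. The strongest, inside RP1, stood at 98.8 and 98.4. Regions at CPXM2 (chr10:123867982-123868685), CUX1 (chr7:101810022-101810680) and SLC38A3 (chr3:50201495-50202308) were in 3, 4 and 4 of the Panc10.05 lists. Those inside ASTN1 (chr1:176984700-176985223), RASGRP1 (chr15:38560412-38561118), TENM4 (chr11:78821505-78822305) and SEMA5A (chr5:9179929-9180503) were in none. The last of the 10, inside GOLGA8G, lies among near-identical gene copies, so its assignment is uncertain.

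P2-α8-only regions were few and mostly weak, with median percentiles of 30.8 and 37.0 in the P2-α8 lists. Of the 61, 27 overlapped a Panc10.05 peak and 14 an AsPC1 peak, and 24 lay inside a protein-coding gene. The strongest was inside MCC, a colorectal tumour suppressor gene (chr5:113361659-113362136), at percentiles 87.0 and 98.0 and in all 4 Panc10.05 lists. The region inside EHHADH, a peroxisomal fatty-acid oxidation enzyme (chr3:185234419-185234852), stood at 47.5 and 82.2 and was in all 4 Panc10.05 lists. Further regions among the first 10 were nearest to LOC124903401, TMEM229A, FAM169A, GGH, MTSS1, COBL and ZHX2, the last at a distance of 410620 bp. The same contrast in Panc10.05, where the doses differed, had both P2-α8 lists and neither P1-α2 list at 2 of the 61 regions (3.28%). That is near the share of all-4 regions (2.78%), of P1-α2-only regions (4.33%) and of the remaining patterns (4.18%) with it. The 2 were MTSS1 and COBL, both of which encode actin regulators. COBL (chr7:51081227-51081566) stood at 69.3 and 58.4 and MTSS1 at 65.9 and 66.1. The P1-α2-only pattern was seen in Panc10.05 at 365 of the P1-α2-only regions (2.74%), at 1.80% of all-4 regions and at 2.23% of the remaining patterns. The reverse pattern was more frequent in each of these groups. It was seen at 577 P1-α2-only regions (4.33%), at 2.78% of all-4 regions and at 4.18% of the remaining patterns.

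The strongest regions of all 4 lists stood at percentiles of 99.7 or above in every library. They were nearest to NRIP1, a nuclear receptor corepressor (chr21:15140217-15141302), JUN, an AP-1 subunit (chr1:59027745-59028774), PAOX (chr10:133378046-133379026) and ZFP62 (chr5:180828850-180829687). The others were nearest to GPR65, ZNF462, IDO2 and STEAP1B. The regions nearest to JUN and ZNF462 lay 244212 and 459311 bp from those genes. Each of the 8 regions was in all 4 Panc10.05 lists, and 6 of the 8 were in both AsPC1 lists, the exceptions being GPR65 and ZNF462.

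Within the 8648 all-4 regions each library was ranked again, so that the ranks have equal length. In 348 regions (4.02%) both P1-α2 ranks exceeded both P2-α8 ranks by at least 20 percentile points, and in 383 (4.43%) the reverse held. These counts are 857 to 1782 and 959 to 1663 when 1 library is left out, since fewer ranks then have to differ. The ranks of the libraries were only loosely alike. Spearman's rank correlation across regions, given as a description over 8648 regions that share libraries and depth, was 0.632 between the P1-α2 replicates and 0.472 between the P2-α8 replicates. Between isoforms it was 0.547 and 0.538 for libraries of the same number and 0.475 and 0.469 otherwise, so the P2-α8 replicates were no closer to each other than to P1-α2 libraries. Regions ranked higher in P1-α2 had a median width of 731 bp against 565 bp for those ranked higher in P2-α8, and 89.7% against 70.5% overlapped Panc10.05. For AsPC1 the shares were 43.4% and 44.6%, below the 53.2% of the remaining 7917 regions. Among all-4 regions, width and Panc10.05 overlap also rose with P1-α2 strength. They went from 592 bp and 70.3% in the weakest quartile by mean P1-α2 percentile to 737 bp and 95.1% in the strongest. The contrasts in width and Panc10.05 overlap therefore cannot be told apart from the choice of regions by rank.

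Among the largest rank gaps, the region inside PLXNA2, a semaphorin receptor (chr1:208175069-208175640), ranked at 78.2 and 84.9 in P1-α2 and 16.2 and 7.31 in P2-α8, and that inside ALDH8A1 (chr6:134925701-134926476) at 84.9 and 91.9 against 28.6 and 10.6. Regions nearest to SNTB1, TMEM217 and GOLGA6L22, at 12682, 9475 and 130616 bp outside these genes, had the same direction. In the other direction, the region inside EHMT1, a histone H3 methyltransferase (chr9:137789330-137789868), ranked at 9.47 and 12.2 in P1-α2 and 91.9 and 86.0 in P2-α8. That inside PAK1, a kinase (chr11:77471724-77472367), ranked at 29.6 and 7.26 against 95.0 and 89.8. EPC2, TAF12 and BCAR3 were the nearest genes of further such regions, with a gap of at least 55.8 points. A further region inside GOLGA8G had this direction, while a P1-α2-only region lies nearby in the same gene, and GOLGA6L22 and GOLGA8G belong to families of near-identical copies where reads may be shared.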

How the data were processed

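The authors deposited 1 narrowPeak list per library, so peaks were called per sample. Per the submitters' processing notes the tools include Bowtie2 2.2.9 and MACS2 2.2.7, and the builds hg38 and mm10 are named without a role. The control used for calling, other parameters and read depth are not given in the sources used here, so depth is unknown. The deposited lists give each peak's fold enrichment (a linear ratio), −log10 of its p-value and of its q-value, an integer score, and the offset of its summit. All are the authors' values. Fold enrichment was ranked within each list, while summit positions and list thresholds were also set side by side across lists.

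Peaks were merged at an overlap of 1 bp with Python 3.11.15, numpy 2.4.6, pandas 2.3.3 and scipy 1.17.1, with code tested on simulated lists of known class and checked with bedtools 2.31.1. Coordinates are 1-based. Genes came from a RefSeq table (GRCh38.p14, 20037 protein-coding genes). Gene starts came from the RefSeq promoter table, which holds 15843 of these genes and none on chromosome 8, so shares and distances to starts leave that chromosome out. All 248 entries of the gene and marker lists were matched by symbol.

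Measures with 1 value per library were compared by two-sided exact permutation tests (6 splits of 2 against 2). Regions, genes and lists were counted without a test. Alternatives were equal list length by fold, −log10 q of at least 20, each replicate left out, a replicate block, and other windows and overlap rules, and one, the nearest end of a gene span as its start, was chosen after seeing the data. Strength bins, the fixed summit window, the motif and gene-start counts by strength and the gene-list counts under other settings were also added after seeing the data.

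The members and gene lists were chosen with earlier results of these data known. Genes were named by rule. Of each list these were up to 4 with the most P1-α2-only or P2-α8-only regions and the members with an all-4 region. Then came the 10 genes nearest to most P1-α2-only regions, the 10 strongest regions of each isoform-only class, the 8 strongest all-4 regions, the 6 largest rank gaps each way, the 5 largest runs and the promoters with a motif. Some genes this rule names are not reported here. List members named outside this rule, such as those without peaks, were chosen after their values were seen. Replicate numbers were checked for pairing. The deviations of same-numbered libraries correlated at 0.0680 in presence over merged regions and 0.159 in rank over all-4 regions, and with 2 pairs the numbers were not taken to pair the samples.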

Additional observations from a re-analysis of the deposited data

How the results depend on the processing

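Of 120 values under other settings, 82 were labelled as unchanged. For measures with 1 value per library this label means an unchanged direction, whatever the size. For counts of regions, genes and ranks it means a ratio of at most 1.5 to the main count. The difference in median distance to a start, for example, was 1517.75 bp, and 221.75 bp without P2-α8 replicate 1. Lists cut to equal length by fold changed the most: 1551 P1-α2-only, 1208 P2-α8-only and 4970 all-4 regions, genes near them 1987 (P1-α2-only) and 1789 (P2-α8-only), and 249 regions ranked higher in P2-α8. Its differences (P1-α2 minus P2-α8) turned to −0.888 points for summits within 1 kb of a start, −0.323 for summits inside genes, −3.66 for peaks with a neighbour within 10 kb and 3.67 for Panc10.05 overlap. A −log10 q of at least 20 left 26 P2-α8-only regions and 43 genes near them. A 10 kb window gave 6285, 36 and 4343 genes near P1-α2-only, P2-α8-only and all-4 regions, and a rank gap of 10 points gave 777 and 815 regions higher in P1-α2 and P2-α8. P2-α8-only regions numbered 787.5 (mean of the replicates' peaks) under reciprocal overlap of 50% and 206.5 with summits within 100 bp.

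Leaving out 1 library gave 15864 to 24891 P1-α2-only, 116 to 510 P2-α8-only and 8706 to 12980 all-4 regions, and 12328 to 15062, 161 to 641 and 8373 to 10472 genes near them. Rank counts ran from 857 to 1782 for regions higher in P1-α2, and from 959 to 1663 for those higher in P2-α8. The share within 1 kb of a start differed by −0.0154 to 0.709 points, with the negative value without P2-α8 replicate 2. Apart from the smaller number of lists needed, the cause was not tested. With the replicate block, the log2 ratio of peak number was 1.46 at an exact permutation p of 0.5, the smallest it allows, and the block changed no call. No alternative could reach a p under 0.333, so p-values say nothing on stability, and unknown depth limits every count of regions absent from a list.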

Other observations

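The balance of P1-α2-only and all-4 regions varied by chromosome. Of the regions of both classes together, P1-α2-only regions made up between 51.9% on chromosome 20 (461 against 427 all-4 regions) and 72.2% on chromosome X (307 against 118), leaving aside chromosome Y with 4 regions in all. Chromosomes 4 and 17 followed X, at 68.2% (565 against 263) and 68.3% (482 against 224). These are counts over pooled regions without a test.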
